A study of Mus musculus with 8 samples.

Results

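Long noncoding RNAs (lncRNAs) are transcripts that are processed like messenger RNAs but are not known to be translated. Many stay in the nucleus, where Malat1 is found in splicing speckles and Neat1 builds paraspeckles, while others, such as Norad, act in the cytoplasm by binding proteins. The brain expresses many of them at high levels, and Malat1 and Miat are abundant in neurons. The 22 rows described here were chosen by their measured mean level: they are the abundant rows of a deposited differential expression table that are named by noncoding RefSeq accessions (NR_) alone, out of 15978 rows in all. A row entered if its mean normalized count, the authors' mean over the mice of counts divided by size factors, was at least 500. Small RNAs and their named hosts, a set of imprinted RNAs (Meg3, Rian, Mirg, Peg13, Kcnq1ot1, Airn and H19) and rows naming extra genomic copies were left out.

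Brain RNA came from 8 male mice, all of the SJL/Bl6 strain background. In 5 of them, called C9-BAC here, a bacterial artificial chromosome carried the human C9ORF72 gene with 500 copies of the G4C2 repeat, and 3 were wild type. Expansion of this repeat is known to cause amyotrophic lateral sclerosis and frontotemporal dementia, and the comparison asks how the transgene alters the brain transcriptome. Libraries were strand-specific and made from total RNA without poly(A) selection, per the labels' protocols, so RNAs lacking a poly(A) tail could be counted. Age, brain region, transgenic line and batch are not named there, nor is the genotype that forms the numerator of the fold changes, so every sign below is as deposited. Only values for the whole comparison were used, and there are no values per mouse here. The spread between mice enters only through the standard errors, which do not measure it directly. None of them exceeds 0.110, and some rows with few counts have low ones. Each sample is taken as 1 mouse; if samples were taken otherwise, the p-values reflect no more than the spread among these samples, which may be technical.

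The tissue label was checked against markers. All 11 markers used for neurons, astrocytes, oligodendrocytes and microglia were in the authors' deposited table, with mean normalized counts from 92.7 (Mog) to 45839 (Slc1a2). Of 6 markers of liver, muscle, pancreas and T cells, 1 had a row there, Myh4 at 16.2.

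The name long noncoding RNA held for 11 of the 22 rows by the annotations consulted, RefSeq (GRCm38.p6) and GENCODE vM21: Malat1, Norad, Miat, Ipw, A330023F24Rik, Tug1, Oip5os1, 5031426D15Rik, 4933431E20Rik, Firre and Ftx, of which 5031426D15Rik was matched in RefSeq alone and the other 10 in both. A further 3 (Rnf227, 1500011B03Rik, 1500009C09Rik) are lncRNAs in RefSeq and protein-coding in GENCODE. Another 6 are transcribed pseudogenes in RefSeq: 6820431F20Rik, 2610005L07Rik, Tmem181b-ps, Gm3893, Gm13363 and Pisd-ps1. Of these, Gm3893 is protein-coding in GENCODE. The row of Fth1, which encodes the ferritin heavy chain, bears a noncoding accession of a protein-coding gene, and it is the gene's only row. The row NR_027907 matched no gene.

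Sequence features for which 4 of these lncRNAs are known were read from their GENCODE vM21 transcripts (GRCm38, the assembly also called mm10), and are shown as the parts through which each is known to act. Norad binds Pumilio proteins, repressors of messenger RNAs, through repeats of the letters TGTANATA. Its transcript held 11 matches on the sense strand, a number reached by 6 of 15751 transcripts of the table's rows, while 27.97% of those transcripts held at least 1. The stretch below, on the minus strand at chr2:156390502-156390558, has 2 neighbouring matches in capitals.
Norad: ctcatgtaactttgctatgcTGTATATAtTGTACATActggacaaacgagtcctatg

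Miat, also called Gomafu, carries repeats of ACTAAC, letters that resemble the intron branch point and are known to bind the splicing factor SF1. It had 11 matches, reached by 5 of 15751 transcripts, and 4 of them lie in capitals in the stretch at chr5:112216752-112216877 on the minus strand, in exon 7 of 7.
Miat: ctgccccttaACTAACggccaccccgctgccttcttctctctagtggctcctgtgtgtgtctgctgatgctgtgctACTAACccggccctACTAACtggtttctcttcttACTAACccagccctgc

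Oip5os1, also called Cyrano, is known for a site that pairs with miR-7 far beyond the seed and triggers decay of that miRNA. In the longest GENCODE transcript of the gene, of 8300 bases, the site at chr2:119602134-119602163 on the plus strand matches the 7-base seed of miR-7a-5p and 13 further bases of its 3' part, in capitals below. In the miRNA the capitals mark the seed. The site lies beyond position 119600746, where the reference bounds of the row's accessions end, so the row's counts need not include it.
miR-7a-5p: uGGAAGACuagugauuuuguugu
Oip5os1: agaACAACAAAATCACcaatGTCTTCCatt

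Malat1 is known to end not in a poly(A) tail but at an A-rich tract that folds into a triple helix with upstream U-rich stretches. RNase P makes this end, and the bases after it form a small tRNA-like RNA. The sequence at chr19:5795922-5796089 on the minus strand shows the longest run of A in the last part of the annotated transcript in capitals, 12 bases, with the flanks that hold those elements.
Malat1: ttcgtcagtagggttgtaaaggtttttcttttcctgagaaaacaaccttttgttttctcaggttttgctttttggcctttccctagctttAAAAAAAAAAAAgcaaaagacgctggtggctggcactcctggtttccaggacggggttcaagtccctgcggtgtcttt

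A pair of the lncRNAs span miRNA genes. A330023F24Rik spans the miR-29b-2 and miR-29c genes on its own strand. The mature miR-29b-3p (chr1:195037091-195037113) and miR-29c-3p (chr1:195037600-195037621), both on the plus strand, share a seed, in capitals. Ftx, an RNA of the X inactivation centre, spans miR-374b (chrX:103573112-103573133) and miR-421 (chrX:103572966-103572986) on its own minus strand, and their seeds differ.
miR-29b-3p: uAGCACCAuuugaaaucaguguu
miR-29c-3p: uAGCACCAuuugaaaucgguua
miR-374b-5p: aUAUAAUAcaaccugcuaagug
miR-421-5p: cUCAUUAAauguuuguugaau

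The letters of the transgene's repeat unit were searched on both strands of the 20 rows with a transcript. GGGGCC was in 9 of 20 and its complement GGCCCC in 11 of 20, against 58.73% and 57.62% of the table's transcripts. Firre held 11 matches of GGCCCC, a number reached by 0.375% of transcripts. The same letters repeated directly in tandem were in none of the 20 on either strand, against 0.305% (GGGGCC) and 0.286% (GGCCCC) of transcripts.

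By the DESeq2 adjusted p, 0 of the 22 rows passed 0.05 in the comparison of the genotypes, and 0% of the table's 15944 rows with a p did. An unadjusted DESeq2 p under 0.05 was reached by 2 of 22 (Fth1 and Gm3893, both positive), against 1.50% of all rows (239 of 15944; 0.659% positive and 0.840% negative), and neither is among the 11 annotated lncRNAs. Among those 11, 0 had an unadjusted p under 0.05, and the smallest p in the authors' deposited table was 0.203 (A330023F24Rik). All 22 had an adjusted p of 0.9997 in the authors' deposited table.

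Log2 fold changes ran from -0.16 (6820431F20Rik) to 0.21 (Fth1) in the authors' deposited table, 15 of 22 (68.2%) lay within 0.1 of 0 beside 82.6% of all rows, and standard errors (SE below) ran from 0.049 to 0.110. There were 8 positive and 14 negative values with a median of -0.05, beside 7580 positive and 8398 negative values and a median of -0.0044 over all rows. Over the 4252 rows that also averaged at least 500 normalized counts, 2163 were positive and 2089 negative, with a median of 0.0016. For the 11 lncRNAs the split was 3 positive and 8 negative (median -0.06), and for the 6 pseudogenes 3 and 3 (median -0.04). No standard error in the authors' deposited table exceeds 0.110. A ceiling of this kind is seen when fold changes are shrunk toward 0 by a prior; shrinkage is not recorded in the labels, and if it was used, the fold changes understate the differences and the intervals set no bound on them.

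**Figure D1:**
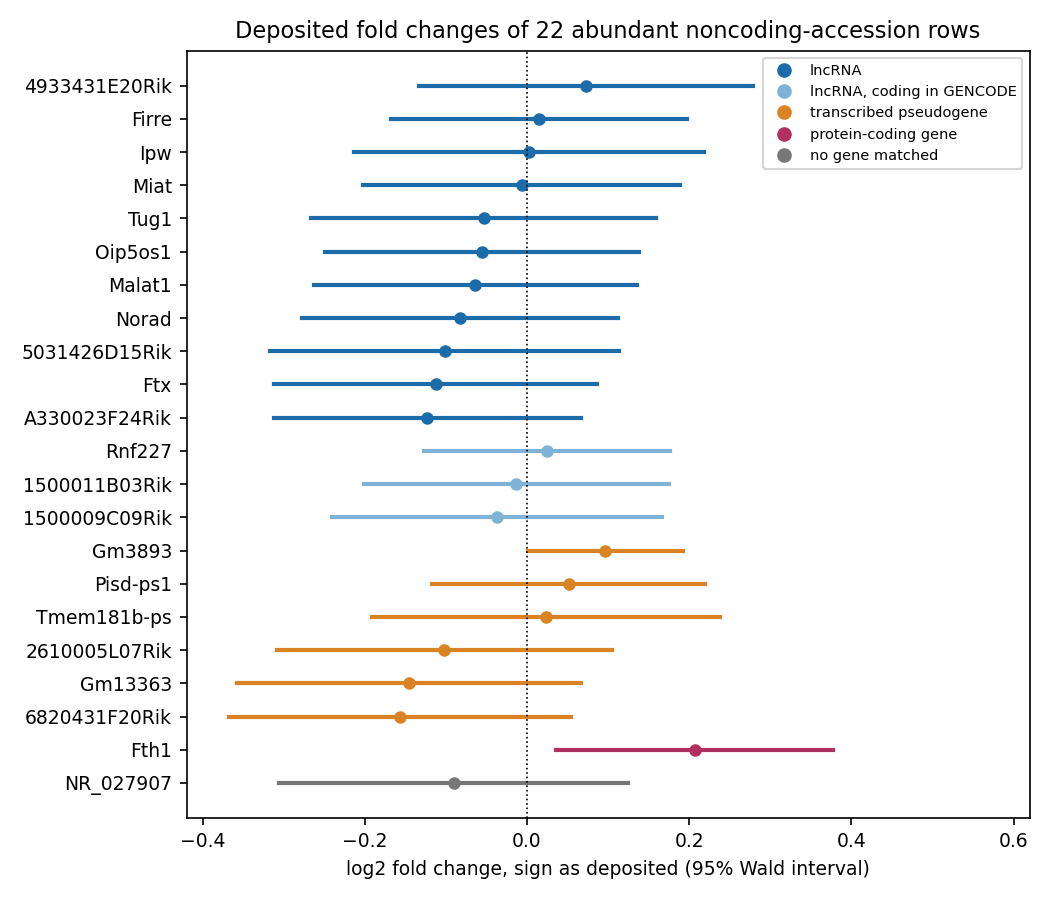
Log2 fold change of each of the 22 rows (x axis, sign as deposited) with its 95% Wald interval as a line, coloured by annotation class. The intervals of 20 rows span 0, and those of Fth1 and Gm3893 lie above it.

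The most abundant row was the nuclear lncRNA Malat1, and the nuclear lncRNAs had fold changes near 0. Malat1, on chromosome 19 at 5795690 to 5802672, averaged 149771 normalized counts, which is 1.62% of the summed means of all rows in the authors' deposited table. Its log2 fold change was -0.06 (SE 0.10; 95% Wald interval -0.26 to 0.14, p = 0.530 from the authors' deposited table, DESeq2). Miat, which takes up its own nuclear domains in neurons, stood at 4166 normalized counts with a log2 fold change of -0.01 (SE 0.10) in the authors' deposited table. Tug1, a largely nuclear RNA required for retinal development, had 1090 normalized counts and -0.05 (SE 0.11) in the authors' deposited table. Firre, an X-linked RNA that helps arrange chromosomes in the nucleus, had 568 normalized counts and 0.01 (SE 0.09) in the authors' deposited table. These 4 RNAs thus gave 3 negative values and 1 positive, each smaller than its standard error. In bulk brain, fewer cells that express an RNA and less of it per cell cannot be told apart.

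Neat1, the scaffold of paraspeckles, lay just outside the count threshold. Its mean normalized count was 479.6 and its log2 fold change 0.04 (SE 0.11) in the authors' deposited table (DESeq2 p = 0.694). The other rows just below the threshold were NR_033229 at 450.7 with a log2 fold change of -0.13 and 9530091C08Rik at 420.4 with one of -0.03 in the authors' deposited table. Just above it were Pisd-ps1 at 514.3 (0.05), Ftx at 516.4 (-0.11) and Gm13363 at 556.8 (-0.15), again mean normalized counts and log2 fold changes of the authors' deposited table.

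Among cytoplasmic lncRNAs, Norad, on chromosome 2 at 156388063 to 156392979, averaged 24243 normalized counts and its log2 fold change was -0.08 (SE 0.10) in the authors' deposited table (95% Wald interval -0.28 to 0.11, DESeq2 p = 0.408). Of its transcript, 51.6% matched another gene model, Gm7292, at 95% identity or more, so reads could be shared. Oip5os1 had 808 normalized counts and its log2 fold change was -0.06 (SE 0.10) in the authors' deposited table. Both values were negative and smaller than their errors.

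Compared per length of transcript, the order of the RNAs changed. Malat1 had 21448 normalized counts per kb, Norad 4932, Ipw 4627 and Fth1 3146, and the other 13 rows with a transcript matched by accession lay between 102 (Firre) and 1016 (Rnf227). Miat had 476 per kb over a transcript of 8758 bases. The counts per kb are means over all mice with no spread, so neighbours in this order cannot be separated, and the threshold on counts chose the rows.

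**Figure D2:**
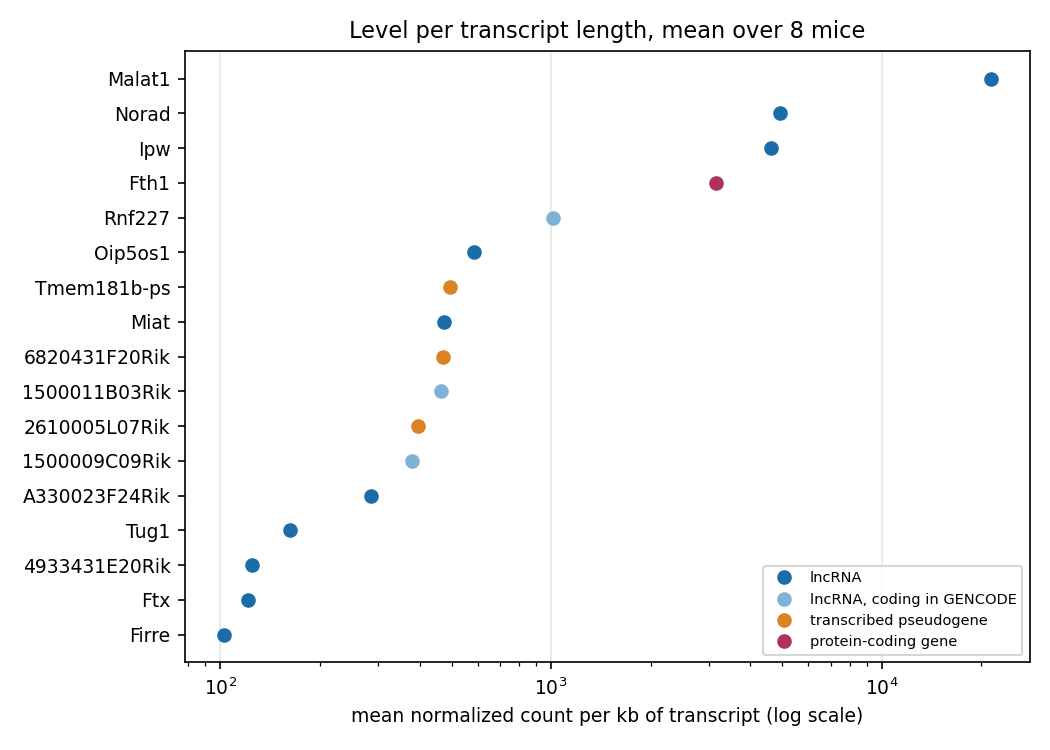
Mean normalized count per kb of transcript (x axis, log scale) of the 17 rows whose transcript was matched by accession, coloured by annotation class; points are means over 8 mice without error. Malat1 stands at 21448, above Norad at 4932, and the lowest is Firre at 102.

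The rows of A330023F24Rik and Ftx, which span miRNA genes, had negative values, and none reached an unadjusted p under 0.05. A330023F24Rik, which spans the miR-29 genes shown above, had 1201 normalized counts and its log2 fold change was -0.12 (SE 0.10) in the authors' deposited table (95% Wald interval -0.31 to 0.07, DESeq2 p = 0.203). It overlaps the gene Cd46 on the opposite strand by 1083 bases, a row at 17.7 normalized counts in the authors' deposited table. Ftx, an activator of Xist and one of the RNAs of the X inactivation centre, had a log2 fold change of -0.11 (SE 0.10, DESeq2 p = 0.268) in the authors' deposited table. Of the other centre genes listed, Xist had no row, and Jpx (31.7 normalized counts) had -0.12 and Tsix (4.47) had -0.06 (log2 fold changes) in the authors' deposited table. None of these 3 passed. Among 7 further hosts of small RNAs with a row, all below the threshold, 3 were positive and 4 negative with 0 of unadjusted p under 0.05, and Gas5, a snoRNA host, had -0.11 (SE 0.10) in the authors' deposited table. The positive ones were the miRNA hosts Dleu2 (0.01), C130071C03Rik (0.01) and Pvt1 (0.02), by their log2 fold changes in the authors' deposited table. Each was smaller than its standard error. Mir100hg, a further miRNA host among the 7, had -0.08 (SE 0.11) there, so miRNA hosts gave both signs.

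The lncRNAs that overlap coding genes gave both signs. The RNA 5031426D15Rik lies wholly within Celf2, a gene for a neuronal splicing regulator, and their log2 fold changes were -0.10 and -0.09, SE 0.11 each, in the authors' deposited table. Because no label or header says whether the authors counted reads by strand, the reads of such overlapping genes cannot be told apart. The antisense RNA 4933431E20Rik, on chromosome 3, overlaps Eps8l3 by 4051 bases and the glutathione transferase gene Gstm5 by 393. Its log2 fold change of 0.07 (SE 0.11) was the highest among the 11 lncRNAs, and Gstm5 had -0.01 (SE 0.10) in the authors' deposited table.

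Ipw, an imprinted RNA of the Prader-Willi region that the rule did not leave out, showed a fold change closer to 0 than any other of the 22. Its row, on chromosome 7 at 59619158 to 59678878, had 3396 normalized counts and its log2 fold change was 0.0025 (SE 0.11) in the authors' deposited table (DESeq2 p = 0.982). GENCODE treats Ipw as part of Snhg14, the long antisense RNA of Ube3a and host of snoRNAs. The Snhg14 rows on both sides of it had log2 fold changes of -0.20 (at 59307924 to 59324149, DESeq2 p = 0.0577) and -0.21 (at 59969577 to 59974431, DESeq2 p = 0.0562) in the authors' deposited table. Whether Ipw differs from them was not tested.

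Of the rows that are lncRNAs in RefSeq and coding in GENCODE, none exceeded 0.04 in absolute log2 fold change. Rnf227 had 0.02 (SE 0.08), 1500011B03Rik -0.01 (SE 0.10) and 1500009C09Rik -0.04 (SE 0.10) in the authors' deposited table. Their mean normalized counts lay between 589.3 and 1042.

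Fth1 had the smallest p of the 22. Ferritin heavy chain stores iron and oxidises it, and is abundant in oligodendrocytes and microglia. Its mean normalized count was 4701 and its log2 fold change 0.21 (SE 0.09) in the authors' deposited table, a 1.15-fold difference (DESeq2 p = 0.0176, adjusted p = 0.9997). Beside it, oligodendrocyte and microglia markers had log2 fold changes of 0.14 (Mog), -0.0045 (Mbp), 0.08 (Cx3cr1), -0.08 (P2ry12) and -0.01 (Csf1r) in the authors' deposited table, 2 of 5 positive. Their part in the Fth1 value was not tested.

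The transcribed pseudogenes ran from -0.16 to 0.10 in log2 fold change in the authors' deposited table, and their values are uncertain, since reads can fit near-identical genes. Gm3893, on chromosome 4 at 42089373 to 42092930, had a log2 fold change of 0.10 (SE 0.05) in the authors' deposited table (DESeq2 p = 0.0481, adjusted p = 0.9997). That standard error is among the lowest 6.27% of all rows. A low standard error need not mean a precise value here. Pantr2, at 1.80 normalized counts, had 0.036 and Gm13304, at 59.2, had 0.028, beside 0.10 for Malat1, in the authors' deposited table. All of its GENCODE transcript matched other gene models, 13 in number, at 95% identity or more. The pair 6820431F20Rik and 2610005L07Rik, neighbours on chromosome 8, had -0.16 and -0.10, SE 0.11 each, in the authors' deposited table (DESeq2 p = 0.147 and 0.333), and matched each other over 23.6% and 31.5% of their transcripts, so reads could be shared.

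Other pseudogenes could be set beside a coding gene that they match or lie in. Tmem181b-ps, all of whose transcript matched Tmem181a, had a log2 fold change of 0.02 (SE 0.11), and Tmem181a had 0.09 (SE 0.09) in the authors' deposited table. Pisd-ps1 matched over 81.1% of its length to Pisd, which makes phosphatidylethanolamine in mitochondria. The values were 0.05 (SE 0.09) for the pseudogene and -0.06 (SE 0.11) for Pisd in the authors' deposited table. Pisd-ps1 also overlaps Sfi1, on the opposite strand, by 96 bases, and Sfi1 had -0.15 (SE 0.11) there. Gm13363 lies within Etl4 on the same strand, and all of its transcript matched 5 other gene models. It had -0.15 (SE 0.11), and Etl4 had 0.12 (SE 0.11) in the authors' deposited table. The unmatched row NR_027907 had 796.6 normalized counts and its log2 fold change was -0.09 (SE 0.11) in the authors' deposited table.

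The Wald statistic, the fold change divided by its standard error, was higher for rows richer in GC, among the 22 as in the table as a whole. Over the 20 rows with a transcript, Spearman's rho between GC content and the statistic came to 0.701 (Pearson's r 0.649), and over the table's 13628 rows averaging 10 normalized counts or more they were 0.414 and 0.406. For the 10 annotated lncRNAs with a transcript alone, rho was 0.430 and r 0.541. The rows are not independent replicates, since all come from the same libraries. The lncRNAs were poor in GC: their median was 44.8% over 10 with a value, against 50.5% for all rows, from Tug1 at 39.0% to Miat at 54.9%. Among the 12 rows below the table's median GC content, the median statistic was -0.73, and among the 8 at or above it 0.24. With the table's trend on GC content taken off, 9 of 20 were positive and 11 negative, beside 8 and 12 before. An empirical null took its centre and spread from the rows averaging 10 normalized counts or more. Set against it, 2 of 22 (Fth1 and Gm3893) had a p under 0.05, beside 4.95% of 13704 such rows. With the GC trend taken off first, 2 of 20 did, beside 6.49% of the 13628 with a GC value. The part of GC content in single values was not tested.

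**Figure D3:**
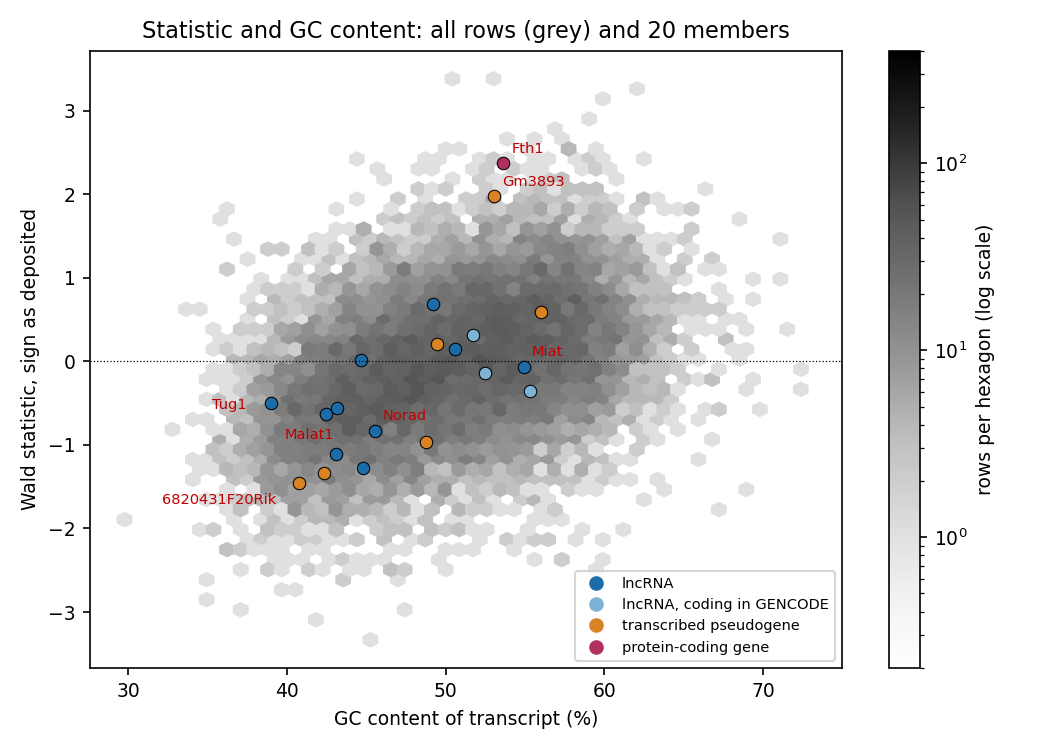
Wald statistic (y axis, sign as deposited) against GC content of the transcript in percent (x axis) for all rows averaging 10 normalized counts or more (grey hexagons, darker for more rows) and for 20 of the 22 rows (points, coloured by class). Malat1, Norad and Tug1 sit at low GC content with negative values, Miat near 0 at 54.9%, and Fth1 at 2.37 and Gm3893 at 1.98.

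Proteins that bind, assemble or degrade such RNAs were read from lists of their genes, none of which held a gene passing an adjusted p of 0.05. Of 31 paraspeckle protein genes, partners of Neat1, 15 were positive and 16 negative with a median log2 fold change of -0.0046, and with the GC trend taken off 20 were positive and 11 negative. Their smallest p belonged to Rbm3, a cold-inducible RNA-binding protein (-0.15, SE 0.10), and Rbm14 (0.13, SE 0.10) in the authors' deposited table. Of 38 nuclear speckle genes, 17 were positive and 21 negative (median -0.02; 20 and 18 with the GC trend taken off), led by the cyclin gene Ccnl1 (-0.19, SE 0.10, DESeq2 p = 0.0516) and the splicing gene Luc7l (-0.17, SE 0.09) in the authors' deposited table. Neither list had a gene with an unadjusted p under 0.05.

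Genes for partners of Xist had 6 positive and 22 negative values of 28 (median -0.03), beside 52.6% negative over all rows. Xist itself had no row in the authors' deposited table. They were led by Suz12, of Polycomb repressive complex 2 (-0.18, SE 0.10), and Ciz1, which anchors Xist in the nucleus (0.17, SE 0.10), in the authors' deposited table. The list had a median GC content of 45.4%, and with the GC trend taken off 10 were positive and 18 negative. Of 27 genes of nuclear RNA decay, 13 were positive and 14 negative (14 and 13 with the GC trend taken off). An unadjusted p under 0.05 was reached by 1 of the 27, beside 1.50% of all rows. It was Pabpn1, the nuclear poly(A) binding protein (-0.21, SE 0.11, DESeq2 p = 0.0471), followed by the exosome helicase gene Mtrex (-0.15, SE 0.09) in the authors' deposited table. Genes of 3' end processing, with RNase P and Integrator, had 16 positive and 17 negative values of 33 (20 and 13 with the GC trend taken off), led by Rpp14 (-0.14, SE 0.11) and Ints1 (0.12, SE 0.11) in the authors' deposited table.

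**Figure D4:**
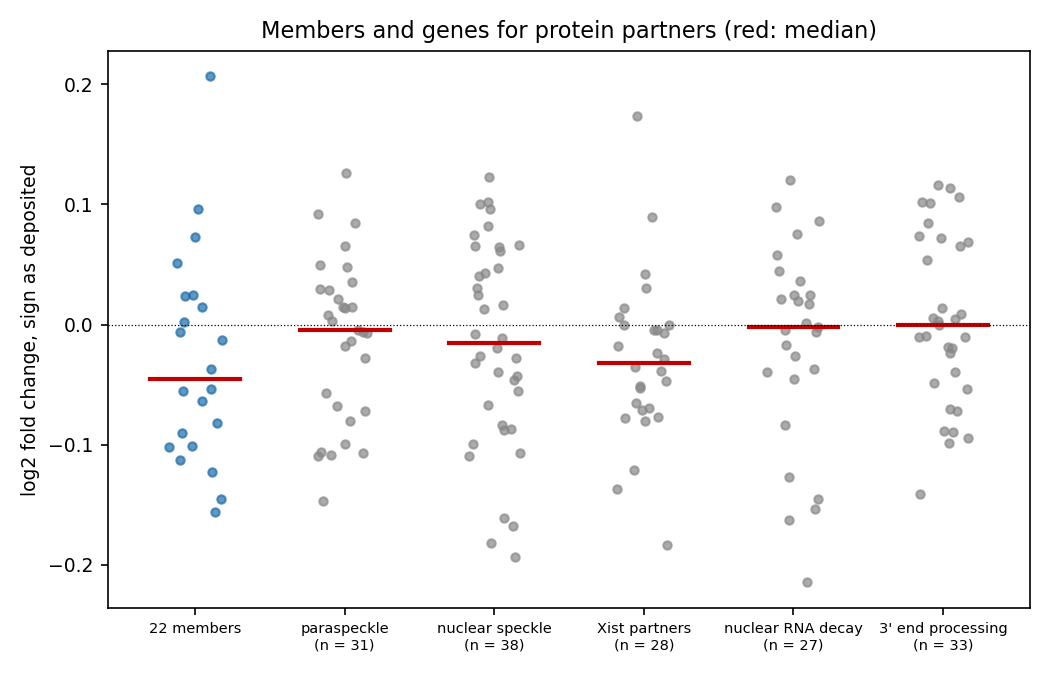
Log2 fold change (y axis, sign as deposited) of the 22 rows (blue) and of genes in 5 lists of partner proteins (grey), 1 point per row or gene, with medians as red lines. The medians lie between -0.05 and 0, and a single gene of all 5 lists is below -0.20.

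Of 11 rows left out by name with at least 500 normalized counts, 4 were positive and 7 negative. Among the imprinted RNAs, the log2 fold changes were -0.01 for Meg3, -0.06 for Rian, -0.18 for Kcnq1ot1 and 0.10 for Peg13 in the authors' deposited table. Of the others, Mir124a-1hg had -0.09, Ubb-ps 0.07 and Rpph1, the RNA of RNase P, -0.14 (DESeq2 p = 0.0687) in the authors' deposited table. The row 4933409K07Rik names an extra copy and had 0.34 (SE 0.10, DESeq2 p = 0.000907, adjusted p = 0.9997) in the authors' deposited table. Of 10 lncRNAs of neural development with a row, Miat among them, 3 were positive and 7 negative (median -0.02), and 1 had an unadjusted p under 0.05, beside 1.50% of all rows. The 2 of smallest p were both below the threshold: Sox1ot (98.7 normalized counts) had -0.25 (SE 0.11) and Dlx6os1, antisense to Dlx5 and Dlx6 of inhibitory neurons (371.4), had -0.20 (SE 0.10) in the authors' deposited table. Their DESeq2 p-values were 0.0236 and 0.0556. Others lay nearer 0, such as Rmst at 0.02, Emx2os at 0.04, Sox2ot at -0.03 and Pantr1 at -0.05 in log2 fold change in the authors' deposited table.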

How the data were processed

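The deposited file is the authors' own comparison of 5 C9-BAC and 3 wild-type brains. Per the submitters' processing notes, the authors' tools were Trimmomatic, Bowtie2, DESeq and DESeq2, and the build was mm10. No label or header names a read counter, strand setting, annotation or filter. Per the file headers, the authors deposited a mean normalized count (a signal), a log2 fold change, its error (also log2), a Wald statistic (a score), and a raw and an adjusted p-value. The statistic differed from fold change over standard error by no more than 8.3e-07, and Benjamini-Hochberg values computed here differed from the adjusted p by no more than 5.3e-12.

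Rows were matched by accession to RefSeq (15857 rows) and then GENCODE vM21 (73), leaving 48 without a symbol. Symbols decided which rows the rule left out: 1 row matched Snhg14 through GENCODE alone and was left out. GC content came from GENCODE transcripts (99.3% of rows); of the 22, 17 matched by accession, 3 by symbol and 2 had none. Copies were sought with BLAST 2.17.0 (at least 95% identity over 200 bases). Python 3.11.15, statsmodels 0.14.6 (lowess, span 0.3) and scipy 1.17.1 were used, and the GC and null steps were tested on simulated data. The empirical null divides the statistic, less its median, by a MAD-based SD (0.789) over rows averaging 10 normalized counts or more.

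The members and lists were chosen with earlier results of these data known. Genes named are the 22 rows, their overlapping or near-identical genes, the functional groups, the rows next to the threshold and the 2 genes of smallest p per partner list; other rows left out by the rule, the rest of the Snhg14 rows and those at 42 Mb of chromosome 4 were named after their values were seen. Of the cell type markers first listed, 1 is not reported here, and the marker counts leave it out.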

Additional observations from a re-analysis of the deposited data

How the results depend on the processing

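The count of 0 called rows among the 22 was the same with p-values adjusted only over rows averaging 10 normalized counts or more. It was also 0 with the empirical null, and with the GC trend taken off before that null. The smallest DESeq2 p of the 22 was 0.0176, so adjusting over fewer rows could hardly have called one. The count of 2 rows with an unadjusted p under 0.05 was the same with the empirical null and after the GC trend was taken off. The empirical null alone could not have removed either row. Its median of -0.037 and SD of 0.789 make the p of every positive statistic smaller. The shares among rows averaging 10 normalized counts or more were 4.95% and 6.49%. The number of positive fold changes was 8 of 22. It became 17 of 51 at a minimum mean normalized count of 200 and 3 of 10 at 1000. Without the rows that overlap a protein-coding gene it was 6 of 17. With only the rows of the lncRNA class, a set chosen after seeing the data, it was 3 of 11. These sets differ in size by construction and share rows with the 22, so they are not independent checks. Their median log2 fold changes were, in that order, -0.050, -0.059, -0.037 and -0.055, beside -0.045 for the 22. Tug1 had the opposite sign with the GC trend taken off (p = 0.734, from the authors' deposited statistics set against the empirical null), and the cause was not tested; the other 19 rows with a GC value kept their sign. Fits without 1 mouse were not run, since no values per mouse were used. No paired analysis was possible because the genotypes share no replicate number. Depth per mouse was not analysed here.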

Other observations

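Gm3893 lies in a stretch of chromosome 4 near 42 Mb where several rows of the table name extra copies. All 6 rows that name a copy there had positive log2 fold changes, from 0.04 to 0.34, in the authors' deposited table, and 2 of the 6 had an unadjusted DESeq2 p under 0.05, beside 1.50% of all rows (0.659% positive): 4933409K07Rik (p = 0.000907) and Fam205a2 (0.28, SE 0.11, p = 0.00989). The chemokine gene Ccl27b had 0.19 (SE 0.11, DESeq2 p = 0.0758) in the authors' deposited table. None passed an adjusted p of 0.05. Reads that fit several copies can be shared among these rows, so they do not count as independent, and the stretch was singled out after its values were seen.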
